A study of Mus musculus with 12 samples.

Results

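This report follows 10 keratin genes in mouse back skin, chosen by symbol as the keratins of resting epidermis and the keratins of wounded or stressed epidermis. The suprabasal pair was Krt1 and Krt10, the basal keratins were Krt5, Krt14 and Krt15, the wound keratins were Krt6a, Krt6b, Krt16 and Krt17, and Krt79 stood for the upper hair follicle. Each of the 10 matched 1 of the 52636 genes of the count table, and all 10 were among the 17993 genes that passed the filter on low counts. Whole skin of female BALB/c mice aged 6 to 8 weeks was sequenced in 12 libraries, 3 from each of 4 groups, and the study describes the 3 as independent biological samples. Control mice were injected intradermally with vehicle and LL37 mice with 40 ul of 320 uM LL37, a peptide cut from the antimicrobial protein cathelicidin, 2 times a day over 2 days, which the study uses as a model of rosacea. The control+RAPA and LL37+RAPA groups were injected in the same way and also received rapamycin (RAPA), which blocks mTORC1, a kinase complex that drives growth, and which the methods give as 4 mg/kg per day by the intraperitoneal route. The comparison of LL37 with control skin asked which keratins differed in the inflamed skin, and that of LL37 with LL37+RAPA skin asked which of these differed when mTORC1 was inhibited.

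Keratins are the intermediate filament proteins of epithelial cells, and each filament is built from a type I and a type II keratin in equal amounts. Basal keratinocytes, which divide, make Krt5 (type II) with Krt14 (type I), and cells that leave the basal layer switch to Krt1 (type II) with Krt10 (type I). After wounding, irritation or in psoriasis, keratinocytes between the follicles begin to make Krt6a and Krt6b (type II) with Krt16 and Krt17 (type I), which in resting skin are mostly kept to hair follicles and other appendages. Krt15 marks quiescent basal cells and the stem cells of the follicle bulge, and Krt79 marks cells of the upper follicle and sebaceous duct.

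The wound keratins have close relatives among the other members, so their sequences bear on which gene a read was counted for. Over the coding sequence, Krt6a and Krt6b were identical at 97.8% of aligned bases, Krt14 and Krt16 at 86.2%, Krt14 and Krt17 at 82.8%, and Krt5 and Krt6a at 80.5%. Of the stretches of 100 bases in the Krt6a coding sequence, 41.2% also occurred unchanged in Krt6b, against 3.4% of those of Krt14 in Krt16 and 3.05% of those of Krt5 in Krt6a. Krt5 and Krt6a shared up to 140 coding bases in a row. The following stretch of 60 coding bases in exon 4 held the most differences between Krt6a (chr15:101692484-101692543, GRCm38, minus strand) and Krt6b (chr15:101678303-101678362, minus strand) of any of this length, and its capitals mark the 10 bases by which a read can be told apart.
Krt6a: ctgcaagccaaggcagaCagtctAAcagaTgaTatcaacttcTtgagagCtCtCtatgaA
Krt6b: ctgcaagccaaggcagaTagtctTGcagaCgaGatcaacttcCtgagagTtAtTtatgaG
The longest coding stretch that Krt14 and Krt16 share without a difference was 134 bases in exon 1 of both genes, at chr11:100207017-100207150 in Krt14 and chr11:100248476-100248609 in Krt16 (GRCm38, minus strand). A read that lies wholly inside it carries nothing that separates the basal from the wound keratin.
Krt14 and Krt16: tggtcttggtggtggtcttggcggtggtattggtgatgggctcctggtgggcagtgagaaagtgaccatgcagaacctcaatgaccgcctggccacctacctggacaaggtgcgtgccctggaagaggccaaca
Krt14, Krt16 and Krt17 are neighbours on chromosome 11, and Krt6b, Krt6a and Krt5 are neighbours on chromosome 15. Gene names, positions and sequences are those of GENCODE M21 on GRCm38. The values of Krt6a and Krt6b are therefore also given as a sum, and their separate values are less certain than those of the other members. The sum does not set apart reads that Krt6a shares with Krt5.

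Depth ranged from 15734559 to 23271784 counts per library, so that even the lowest member value rested on 143 counts (Krt6b, control replicate 1). LL37 replicate 3 stood apart from the other LL37 libraries on the first principal component of all genes, at 64.4 against 133 and 129, and control replicate 3 was the highest control library for Krt16, Krt6a and Krt6b. Results that rest on either library are given with and without it. Skeletal muscle markers, with 20 of 20 genes counted in every control library, summed to 41097 to 59667 CPM (read counts scaled to a common library size with TMM) in control, 43951 to 77183 in control+RAPA, 78.0 to 1073 in LL37 and 3913 to 8076 in LL37+RAPA skin, and Tnnc2 was at 0 in all LL37 libraries. Of 10 neutrophil markers, Ly6g was at 0 in all control+RAPA libraries, and their sum was 28.5 to 68.3 CPM in control, 37.6 to 56.9 in control+RAPA, 224 to 1209 in LL37 and 213 to 538 in LL37+RAPA skin. The 20 genes of an epithelial reference list, which are shared by epithelial cells and include no keratin, summed to 3738 to 4968, 4616 to 5212, 3931 to 5097 and 4139.9 to 4493 CPM in the same order, and all were counted in every library. The part of these tissue differences in the keratin results was not tested, except by scaling to the epithelial list and by a fit with the muscle marker genes removed. In whole skin, fewer cells of a type and less RNA per cell cannot be told apart.

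In LL37 skin, all 4 wound keratins were higher than in control skin, together with the basal pair Krt5 and Krt14, whereas the basal keratin Krt15 was lower. Krt1, Krt10 and Krt79 did not pass the test (Benjamini-Hochberg adjusted p under 0.05, edgeR quasi-likelihood test over all tested genes). Krt16 had the largest fitted difference, 22.0-fold, and Krt5 the smallest among those that passed, 1.44-fold. The order of Krt16 and Krt6b rested on control replicate 3, without which the log2 fold change was 6.43 (adjusted p = 0.000279) for Krt16 and 7.50 (adjusted p = 0.00099) for Krt6b. Higher expression was thus called for 6 of the 10 members, against 21% of all tested genes, and lower expression for 1 of the 10, against 21.6%. The libraries of both groups did not overlap for 7 of the 10 members, where 49.7% of all tested genes did not overlap. The median log2 fold change was 0.79 over the 10 members and -0.0049 over all tested genes.

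**Figure D1:**
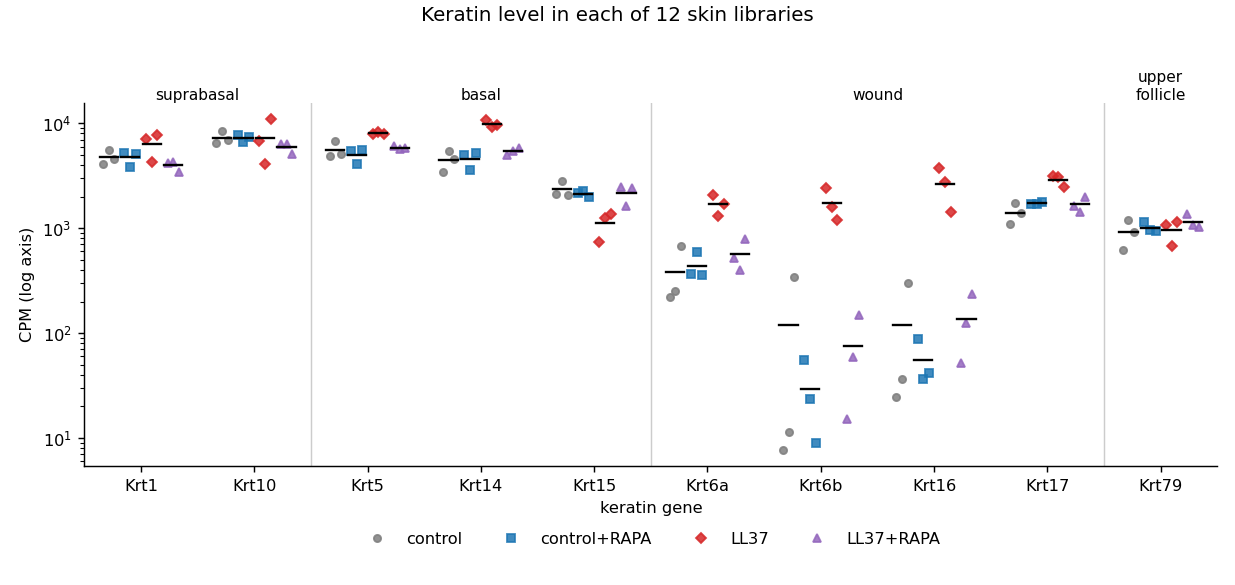
CPM of each keratin (log axis) in every library, with symbols and colours for the 4 groups (3 libraries each) and black bars for the group means. LL37 libraries lie above all others for Krt5, Krt14, Krt6a, Krt6b, Krt16 and Krt17 and below them for Krt15. The control symbol at about 299.8 CPM for Krt16 is control replicate 3.

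Krt16 (ENSMUSG00000053797, chromosome 11 from 100246091 to 100248902), the type I wound keratin, was at 24.4, 36.6 and 299.8 CPM in control replicates 1 to 3 and at 3772, 2746 and 1425 CPM in LL37 replicates 1 to 3. Every LL37 library lay above every control library, although control replicate 3 was much higher than the other controls and LL37 replicate 3 was the lowest of its group. The log2 fold change was 4.46 (SE 0.95, adjusted p = 0.00302, edgeR), and it was 6.43 (adjusted p = 0.000279) without control replicate 3 and 4.79 (adjusted p = 0.00173) without LL37 replicate 3.

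Krt6b (ENSMUSG00000023041, chromosome 15 from 101676023 to 101680287), a type II partner of Krt16, was at 7.71, 11.3 and 341 CPM in control skin and at 2426, 1596 and 1193 CPM in LL37 skin. As a ratio of highest to lowest, its controls spanned a wider range than those of any other member, with replicate 3 far above the others. The log2 fold change was 3.85 (SE 1.33, adjusted p = 0.0355, edgeR), and 7.50 (adjusted p = 0.00099) without control replicate 3. The call was lost without control replicate 1, 3.29 (adjusted p = 0.0791), without control replicate 2, 3.30 (adjusted p = 0.0848), without LL37 replicate 1, 3.54 (adjusted p = 0.0781), and without LL37 replicate 2, 3.95 (adjusted p = 0.0526), as well as in a fit of the compared groups only, 3.84 (adjusted p = 0.0804).

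Krt6a (ENSMUSG00000058354, chromosome 15 from 101689910 to 101694307) was the wound keratin of type II that control skin expressed more. It was at 219, 255 and 674 CPM in control and 2072, 1304 and 1698 CPM in LL37 skin, again with control replicate 3 as the highest control and with no overlap. The log2 fold change was 2.15 (SE 0.42, adjusted p = 0.00182, edgeR), and 2.83 (adjusted p = 0.000243) without control replicate 3. Summed, Krt6a and Krt6b were at 227, 266 and 1015 CPM in control and 4498, 2901 and 2891 CPM in LL37 skin, so that the groups did not overlap whichever of the pair a read was given to. Krt6a and Krt6b overlap exons of unnamed genes on the opposite strand (Gm44342 and Gm49428, and Gm44383), and the library kit does not mark strand, so reads of these could not be separated.

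Krt17 (ENSMUSG00000035557, chromosome 11 from 100256217 to 100261029), the type I wound keratin that is also made in hair follicles of resting skin, was abundant in all groups. It was at 1091, 1727 and 1403 CPM in control and at 3158, 3073 and 2482 CPM in LL37 skin. The groups did not overlap, and control replicate 3 lay between the other controls. The log2 fold change was 1.05 (SE 0.18, adjusted p = 0.000747, edgeR), a 2.06-fold difference, so among wound keratins it had the smallest difference and the largest level in control skin.

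Among basal keratins, Krt14 (ENSMUSG00000045545, chromosome 11 from 100203162 to 100207548), the type I keratin of the basal layer, was at 3466, 5467 and 4609 CPM in control and 10704, 9263 and 9551 CPM in LL37 skin. All LL37 libraries were higher than all controls, by 2.18-fold in the fit, with a log2 fold change of 1.12 (SE 0.19, adjusted p = 0.000697, edgeR). This call was kept under every alternative fit and with any library left out.

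Krt5 (ENSMUSG00000061527, chromosome 15 from 101707070 to 101712898), the type II partner of Krt14, was at 4886, 6817 and 5062 CPM in control and 7967, 8328 and 7839 CPM in LL37 skin. The groups did not overlap, and control replicate 2 was the control nearest to the LL37 range, and the log2 fold change was 0.53 (SE 0.16, adjusted p = 0.0188, edgeR). The call was lost without control replicate 1, 0.44 (adjusted p = 0.0746), without control replicate 3, 0.45 (adjusted p = 0.077), in a fit of the compared groups only, 0.51 (adjusted p = 0.0658), and when libraries were scaled to the epithelial reference list, 0.32 (adjusted p = 0.163). That scaling moved the median of all tested genes to -0.24, against which the 0.32 of Krt5 has to be read.

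Krt15 (ENSMUSG00000054146, chromosome 11 from 100131758 to 100135928), the keratin of quiescent basal and bulge cells, was the one member that was lower in LL37 skin. It was at 2135, 2807 and 2078 CPM in control and at 745, 1258 and 1362 CPM in LL37 skin, with no overlap. The log2 fold change was -1.06 (SE 0.23, adjusted p = 0.00333, edgeR), a 2.09-fold difference, so that the 3 keratins of the basal layer moved in both directions.

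The suprabasal keratins differed less between the groups than among the LL37 libraries. Krt10 (ENSMUSG00000019761, chromosome 11 from 99385254 to 99389364) was at 6494, 8446 and 6871 CPM in control and 6855, 4069 and 10939.6 CPM in LL37 skin, and its log2 fold change was 0.0035 (SE 0.28, adjusted p = 0.993, edgeR). LL37 replicate 3 was above all controls and LL37 replicate 2 below all of them, and without LL37 replicate 3 the log2 fold change was -0.38 (adjusted p = 0.161). Krt1 (ENSMUSG00000046834, chromosome 15 from 101845426 to 101850794) was at 4118, 5607 and 4616 CPM in control and 7136, 4299 and 7787 CPM in LL37 skin, which gave 0.42 (SE 0.22, adjusted p = 0.146, edgeR) as its log2 fold change. LL37 replicate 2 was again the lowest of its group, within the range of the controls, and without it the difference passed at 0.68 (adjusted p = 0.0158). Krt10 shares exon sequence with Gm11940, and Krt5 with Gm44323, on the opposite strand.

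Krt79 (ENSMUSG00000061397, chromosome 15 from 101929332 to 101940324) was at 623, 1211 and 913 CPM in control and 1068, 680.1 and 1141 CPM in LL37 skin, with full overlap. Its log2 fold change was 0.073 (SE 0.24, adjusted p = 0.833, edgeR), and it had the same order of LL37 libraries as Krt10, with replicate 2 lowest and replicate 3 highest.

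To compare levels between keratins, CPM was divided by the length of the main coding transcript. In control skin the order was Krt10 at 3472 ± 494 CPM per kb (SD, n = 3), Krt14 at 2658 ± 591, Krt5 at 2544 ± 486 and Krt1 at 1947 ± 309. Neighbours among these 4 overlapped, while Krt1 did not overlap Krt15, the next in order. Krt15 at 1377 ± 239, Krt17 at 907 ± 205 and Krt79 at 437 ± 140.0 CPM per kb followed without overlap. Krt6a at 168 ± 111, Krt16 at 76.8 ± 99.4 and Krt6b at 53.8 ± 85.8 CPM per kb came last, with overlapping libraries. In LL37 skin Krt14 stood first at 5795 ± 449 CPM per kb, above Krt5 at 3662 ± 116 and without overlap. Krt16 at 1692 ± 752 CPM per kb overlapped Krt17 at 1873 ± 238, and Krt6b at 778 ± 281 overlapped Krt6a at 742 ± 169. Krt15 and Krt79, at 659.9 ± 194 and 459 ± 118 CPM per kb, came last there and overlapped each other. Thus Krt16 and Krt6b moved from the bottom of the order in control skin to levels near the other wound keratins in LL37 skin.

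Ratios within a library compare the classes without regard to how libraries are scaled. The ratio of Krt16 to Krt14 per kb, both type I, was 0.00763, 0.00725 and 0.0706 in control replicates 1 to 3 and 0.382, 0.322 and 0.162 in LL37 replicates 1 to 3. In each LL37 library Krt16 was thus higher relative to Krt14 than in any control. For Krt17 the same ratio was 0.345, 0.346 and 0.333 in control and 0.323, 0.363 and 0.285 in LL37 skin, so that the groups overlapped. On the type II side, Krt6a per Krt5 was 0.0432, 0.036 and 0.128 in control and 0.251, 0.151 and 0.209 in LL37 skin, and Krt6b per Krt5 was 0.00155, 0.00163 and 0.0663 and 0.299, 0.188 and 0.15. The wound keratins Krt16, Krt6a and Krt6b were therefore higher relative to their basal counterpart in every LL37 library, whereas the groups overlapped for Krt17.

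Within the wound keratins, Krt6b per Krt6a was 0.0359, 0.0454 and 0.517 in control and 1.19, 1.25 and 0.716 in LL37 skin, so that, as the reads of the near-identical pair were counted, Krt6b was the larger of both only in LL37 replicates 1 and 2. Control replicate 3 was again intermediate. The ratio of Krt10 to Krt14 was 1.52, 1.25 and 1.21 in control and 0.519, 0.356 and 0.929 in LL37 skin, with every LL37 library below every control, while Krt1 per Krt5 was 0.754, 0.736 and 0.816 and 0.802, 0.462 and 0.889 and overlapped. Krt10 per Krt1, the suprabasal partners, was 1.85, 1.77 and 1.75 in control and 1.13, 1.11 and 1.65 in LL37 skin. Krt15 per Krt14 was 0.615, 0.513 and 0.45 in control and 0.0696, 0.136 and 0.142 in LL37 skin, which put every LL37 library below every control. Krt14 per Krt5, the basal partners, was 0.918, 1.04 and 1.18 in control and 1.74, 1.44 and 1.58 in LL37 skin. Over all 10 members, however, the sum of type I per sum of type II keratins was 1.66, 1.65 and 1.64 in control and 1.6, 1.66 and 1.65 in LL37 skin, which overlapped. With 3 libraries a group these ratios were not tested.

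**Figure D2:**
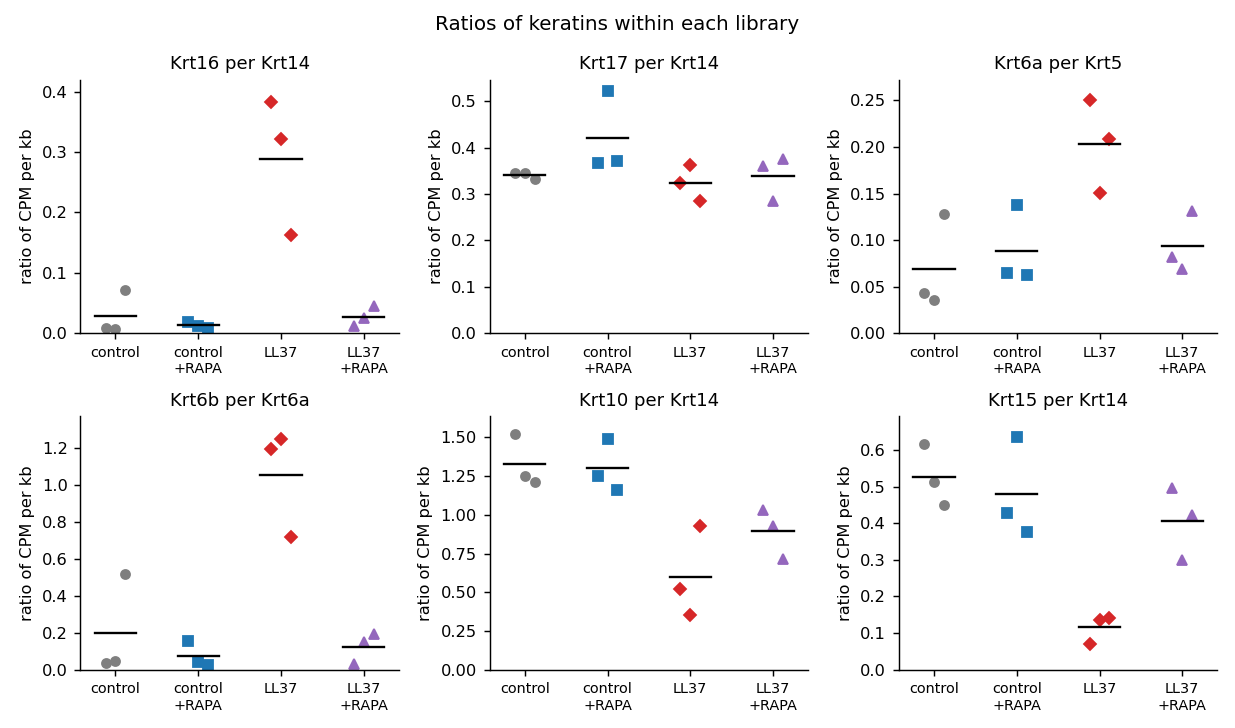
Ratios of CPM per kb of coding transcript between pairs of keratins in each library, by group (symbols, 3 libraries each; black bars, means). Krt16 per Krt14 and Krt6b per Krt6a are highest in the LL37 libraries, Krt10 per Krt14 is below the controls in all 3 LL37 libraries, Krt15 per Krt14 is lowest there, and Krt17 per Krt14 overlaps between control, LL37 and LL37+RAPA skin, while the control+RAPA libraries, at 0.367, 0.523 and 0.37, lie above all control and LL37 libraries.

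The 10 members took 2.21, 3.13 and 2.67% of all counts in control replicates 1 to 3 and 4.58, 3.8 and 4.83% in LL37 replicates 1 to 3. Of their sum per kb, the 4 wound keratins made up 7.17, 7.78 and 11.5% in control and 27.4, 26.4 and 16.7% in LL37 skin, and in the latter Krt16 alone made up 10.3, 9.22 and 4.01%. Krt1 and Krt10 together made up 41.9, 39.2 and 38.6% in control and 26.3, 19.4 and 36.9% in LL37 skin, all of the latter below the former. The basal share was 48.4, 49.5 and 46.6% and 44.1, 52.5 and 44.0%, with overlap, and within it Krt14 alone was 19.4% ± 1.31 (SD, n = 3) of the sum in control and 26.7% ± 1.96 in LL37 skin. The Krt79 share was 2.6, 3.58 and 3.25% in control and 2.17, 1.7 and 2.39% in LL37 skin, also without overlap. LL37 replicate 3 was nearest to the controls in the wound, suprabasal and Krt79 shares. Shares of 1 sum are not independent, and in CPM Krt1 and Krt10 together were at 10612, 14052 and 11487 in control and 13991, 8367 and 18726 in LL37 skin, which overlapped, as did Krt79.

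**Figure D3:**
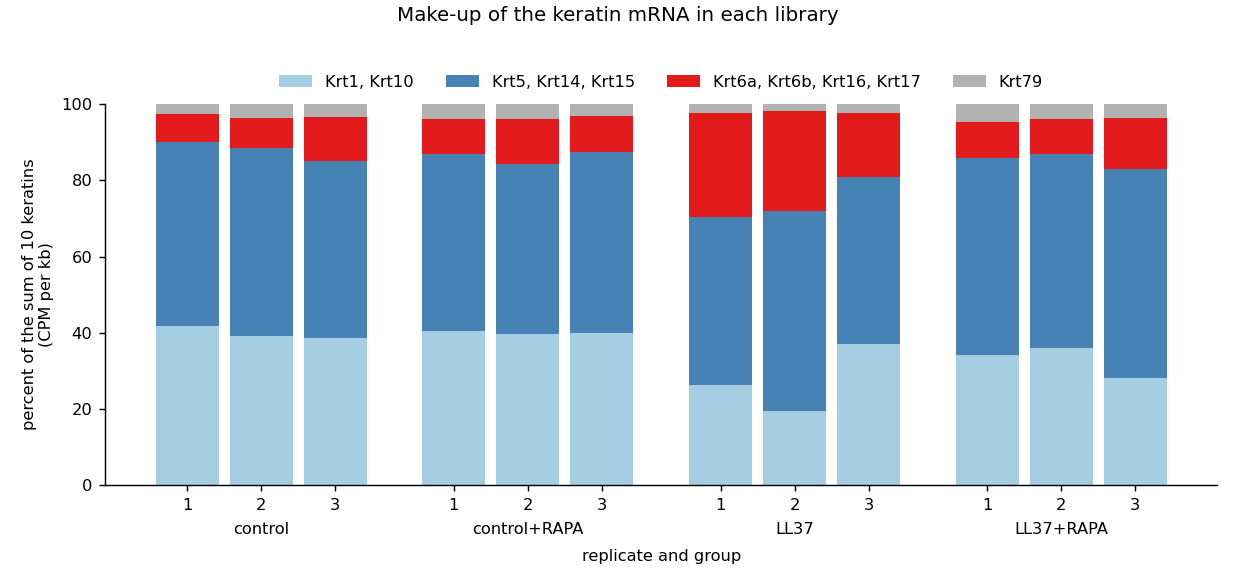
Share of each keratin class in the sum of the 10 keratins (CPM per kb, percent) in every library, by group and replicate. The wound share is 27.4, 26.4 and 16.7% in the LL37 libraries and at most 13.5% in the other 9, and the suprabasal share is lowest in LL37 replicate 2, at 19.4%.

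In LL37+RAPA skin the wound keratins overlapped the range of the control libraries, for Krt16, Krt6a and Krt6b through control replicate 3 alone, since without it all LL37+RAPA libraries lay above the controls. Every one of the 4 was higher in LL37 than in LL37+RAPA skin. Krt14 and Krt1 were also higher and Krt15 lower in LL37 skin, while Krt5, Krt10 and Krt79 did not pass. This gave 6 of 10 members higher in LL37 than in LL37+RAPA skin, against 11.8% of all tested genes, and 1 of 10 lower, against 12.4%. Libraries did not overlap for 7 of the 10, against 38.3% of all tested genes. The comparison shares its LL37 libraries with that against control, so the values of both stand side by side and are not independent.

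Krt16 was at 52.1, 126 and 235 CPM in LL37+RAPA replicates 1 to 3, all below the lowest LL37 library at 1425 CPM. Its log2 fold change was 4.27 (SE 0.95, adjusted p = 0.00914, edgeR) against LL37+RAPA, beside 4.46 against control. Krt6b was at 15.3, 59.3 and 149 CPM in LL37+RAPA skin, and its log2 fold change was 4.54 (SE 1.38, adjusted p = 0.0338, edgeR). Krt6a was at 518, 401 and 792 CPM, with a log2 fold change of 1.57 (SE 0.41, adjusted p = 0.0197, edgeR). Summed, Krt6a and Krt6b were at 533, 461 and 942 CPM and below all LL37 libraries. Both wound keratins of type II lost their call when 1 library was left out. For Krt6a it was lost without LL37 replicate 1, 1.40 (adjusted p = 0.0712), without LL37+RAPA replicate 1, 1.50 (adjusted p = 0.0731), and without LL37+RAPA replicate 2, 1.37 (adjusted p = 0.0676). For Krt6b it was lost without LL37 replicate 1, 4.22 (adjusted p = 0.0842), without LL37 replicate 2, 4.60 (adjusted p = 0.0575), and without LL37+RAPA replicate 1, 4.06 (adjusted p = 0.108), replicate 2, 4.40 (adjusted p = 0.0964), or replicate 3, 5.54 (adjusted p = 0.0544).

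Krt17 was at 1644, 1428 and 1979 CPM in LL37+RAPA skin, with a log2 fold change of 0.79 (SE 0.18, adjusted p = 0.00962, edgeR) between LL37 and LL37+RAPA. Krt14 was at 5001, 5502 and 5769 CPM there, with a log2 fold change of 0.86 (SE 0.19, adjusted p = 0.00852, edgeR). Both kept their calls with any library left out, and no LL37+RAPA library reached the LL37 range. Krt5 was at 6118, 5662 and 5815 CPM, also below all LL37 libraries, but its log2 fold change of 0.46 (SE 0.16, adjusted p = 0.0547, edgeR) did not pass, while DESeq2 gave 0.46 (adjusted p = 0.014).

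Krt15 was at 2480.1, 1644 and 2436 CPM in LL37+RAPA skin, above all LL37 libraries, and its log2 fold change was -0.96 (SE 0.23, adjusted p = 0.0128, edgeR). This call was lost without LL37+RAPA replicate 1, -0.86 (adjusted p = 0.0524), and in a fit of the compared groups only, -0.97 (adjusted p = 0.0533). Krt1 was at 4181, 4311 and 3458 CPM, and its log2 fold change was 0.69 (SE 0.22, adjusted p = 0.0427, edgeR). LL37 replicate 2 lay within the LL37+RAPA range for Krt1, and the call was lost in 9 of 12 fits that left out 1 library, among them those without LL37 replicate 3, 0.52 (adjusted p = 0.092), and without control replicate 3, 0.68 (adjusted p = 0.0622), in a fit of the compared groups only, 0.69 (adjusted p = 0.0882), and with the epithelial scaling, 0.47 (adjusted p = 0.121). Krt10 at 6359, 6311 and 5104 CPM and Krt79 at 1364, 1072 and 1029 CPM gave log2 fold changes of 0.30 (SE 0.28, adjusted p = 0.459, edgeR) and -0.26 (SE 0.24, adjusted p = 0.457, edgeR).

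**Figure D4:**
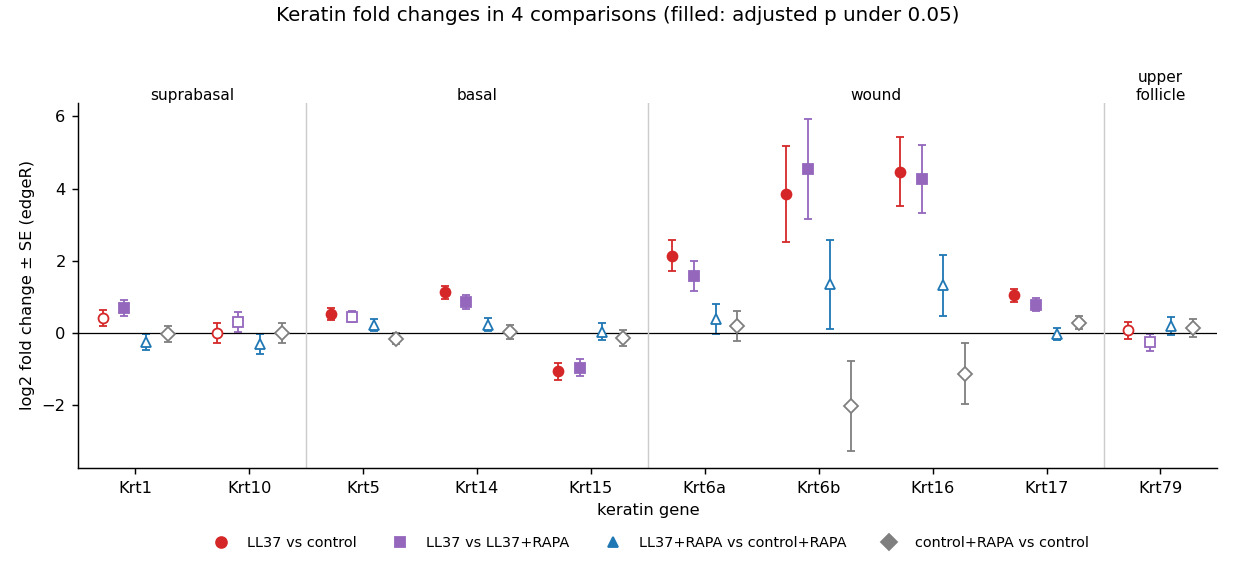
log2 fold change of each keratin in 4 comparisons, with standard errors from the edgeR fit; filled symbols passed at an adjusted p under 0.05. In LL37 against control and LL37 against LL37+RAPA skin, which share the LL37 libraries, 7 of 10 keratins have filled symbols in each, and in the other comparisons none has.

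In the keratin pool, LL37+RAPA skin overlapped control skin in the wound share, but only with control replicate 3 included, and not in the others. The wound share was 9.55, 9.07 and 13.5%, which overlapped the controls through control replicate 3 alone and lay above the other controls. The suprabasal share was 34.1, 35.9 and 28.2%, below that of every control library and overlapping LL37 skin. The basal share was 51.7, 51.1 and 54.8%, above that of every control library. Likewise, Krt10 per Krt14 was 1.03, 0.93 and 0.717, below all controls, while Krt17 per Krt14 at 0.36, 0.284 and 0.376 overlapped them. Krt16 per Krt14, at 0.0113, 0.0248 and 0.0442, was above control replicates 1 and 2 and below control replicate 3.

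Comparing LL37+RAPA with control+RAPA skin gave the difference that went with LL37 in mice that all received RAPA, from 6 libraries that are not part of the comparison of LL37 with control. None of the 10 members passed in this comparison by edgeR or DESeq2, and none had an unadjusted p under 0.05. Of all tested genes, 8.2% were called higher and 10.4% lower, so for 10 genes a count of 0 is not far from these shares. Krt16 was at 88.2, 36.2 and 41.5 CPM in control+RAPA skin, and its log2 fold change was 1.32 (SE 0.85, adjusted p = 0.329, edgeR). For Krt6b, at 55.6, 23.6 and 8.92 CPM in control+RAPA skin, it was 1.35 (SE 1.23, adjusted p = 0.512, edgeR). The standard errors of both were near 1 in this fit, which shares 1 estimate of spread over all 12 libraries. Without control replicate 3, which is not in this comparison, Krt16 gave 1.32 (SE 0.54, adjusted p = 0.131, edgeR). Krt6b then gave 1.35 (SE 0.75, adjusted p = 0.267, edgeR). Differences smaller than those in mice without RAPA, but several-fold in size, could thus have been missed. The log2 fold changes of the more evenly expressed Krt14, Krt17 and Krt15 were 0.24 (SE 0.19, adjusted p = 0.44, edgeR), -0.031 (SE 0.18, adjusted p = 0.934, edgeR) and 0.036 (SE 0.23, adjusted p = 0.941, edgeR). Krt5 libraries did not overlap, with 5438, 4139 and 5510.2 CPM in control+RAPA skin, and its log2 fold change was 0.22 (SE 0.16, adjusted p = 0.38, edgeR). Krt10 libraries did not overlap either, with 7779, 6571 and 7455 CPM in control+RAPA skin, and LL37+RAPA skin gave lower values, with a log2 fold change of -0.29 (SE 0.28, adjusted p = 0.529, edgeR). The share of all tested genes without overlap was not counted for this comparison. Krt6a, Krt1 and Krt79 gave 0.39 (SE 0.41, adjusted p = 0.58, edgeR), -0.25 (SE 0.22, adjusted p = 0.5, edgeR) and 0.19 (SE 0.24, adjusted p = 0.66, edgeR).

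No keratin passed for RAPA without LL37. In control+RAPA against control skin, 0 of the 10 members passed by edgeR, 0 had an unadjusted p under 0.05, and 0 passed by DESeq2. Over all genes, edgeR called 0% (0 of 17993, with 1556 at an unadjusted p under 0.05), and DESeq2 called 30 higher and 65 lower. The wound keratins again had the widest errors, with -1.12 (SE 0.84, adjusted p = 0.75, edgeR) for Krt16 and -2.03 (SE 1.25, adjusted p = 0.686, edgeR) for Krt6b, both of which turned positive without control replicate 3, to 0.85 (adjusted p = 0.893) and 1.62 (adjusted p = 0.859). The other 8 members had log2 fold changes between -0.15 (Krt5) and 0.29 (Krt17).

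The difference that RAPA made with LL37 was set against the difference it made without LL37 in an interaction term over all 12 libraries. Krt17 was the 1 member that passed, with an interaction of -1.08 (SE 0.25, adjusted p = 0.0411, edgeR) on the log2 scale, against 1.13% of tested genes called lower. No member was called higher, against 2.15%. RAPA went with lower Krt17 in LL37 skin whereas control skin, with and without RAPA, overlapped, and Krt17 was there at 1689, 1710.0 and 1762 CPM in control+RAPA replicates 1 to 3. This call was lost in 10 of the 12 fits that left out 1 library, all but those without control replicate 2 and without LL37 replicate 3, and lay between -1.22 and -0.91 in all of them. Krt14, at -0.89 (SE 0.26, adjusted p = 0.0824, edgeR), and Krt15, at 1.10 (SE 0.32, adjusted p = 0.0807, edgeR), did not pass but did by DESeq2, with -0.89 (adjusted p = 0.0127) and 1.10 (adjusted p = 0.0137). Without LL37 replicate 3 both also passed by edgeR, with -0.91 (adjusted p = 0.0418) and 1.26 (adjusted p = 0.0196). Scaled to the epithelial reference list, Krt15 was the 1 member that passed, at 1.42 (adjusted p = 0.0142, edgeR), so the member called changed with the fit. That scaling moved the median interaction of all tested genes to 0.37, against which the 1.42 of Krt15 has to be read. For Krt16 and Krt6a the terms were -3.14 (SE 1.20, adjusted p = 0.153, edgeR) and -1.76 (SE 0.58, adjusted p = 0.107, edgeR), and without control replicate 3 both passed, with -5.11 (adjusted p = 0.0425) and -2.43 (adjusted p = 0.0425). The term for Krt6b was -2.51 (SE 1.72, adjusted p = 0.416, edgeR), and -6.15 (adjusted p = 0.0517) without control replicate 3. Krt1, Krt5, Krt10 and Krt79 gave -0.67 (SE 0.31, adjusted p = 0.23), -0.30 (SE 0.22, adjusted p = 0.45), -0.30 (SE 0.39, adjusted p = 0.695) and 0.12 (SE 0.34, adjusted p = 0.874) by edgeR.

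Across all 12 libraries, the members fell into sets that varied together, given here as Pearson correlations of log2 CPM, which the 4 groups and the shared tissue make-up of each library also shape. Krt16 and Krt6b had r = 0.983, Krt6a and Krt16 r = 0.920, and Krt14 and Krt5 r = 0.934. Krt14 with Krt16 and with Krt17 gave r = 0.903 each. Krt15 ran against them, with r = -0.842 to Krt16 and -0.796 to Krt14. Krt10 varied with Krt1 (r = 0.714) and hardly with Krt5 (0.000) or Krt14 (0.012). The genes outside the members with the pattern most like Krt16 were Gm11597 (r = 0.988), Gjb2 (0.987), which encodes connexin 26, and Gm5478 (0.986). Of the 100-base stretches of Gm11597, an unprocessed pseudogene at 100228845 to 100232078 on chromosome 11 between Krt14 and Krt16, 35.8% occurred unchanged in Krt16 transcripts, and of those of Gm5478 on chromosome 15, 3.22% occurred in Krt6a and 1.26% in Krt6b, so that reads from these stretches could have been counted for either gene. Those most like Krt14 were Mlx (0.978), Kpna2 (0.970) and Rangap1 (0.966). Krt10 was followed by Grhl3 (0.969), a transcription factor of epidermal barrier formation, Dsg1a (0.955), a desmosomal cadherin of the upper epidermis, and 4833423E24Rik (0.950). Krt15 was followed by Ephx1 (0.961), Lurap1l (0.957) and Kcna1 (0.956), and Krt79 by Gm38910 (0.915), Aadacl4 (0.908) and Sptssa (0.867).

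Keratins outside the members were called in both directions. Their counts, from short lists, stand beside 21% of all tested genes called higher and 21.6% called lower against control. Of 7 tested keratins of other epidermal sites, 0 were called higher against control and 1 was lower, Krt24, at 4.04, 8.05 and 6.9 CPM in control and 1.03, 1.04 and 2.21 CPM in LL37 skin (log2 fold change -2.12, SE 0.49, adjusted p = 0.00486). Of 6 keratins of simple epithelia, 0 were higher and 1 was lower, Krt19, a bulge and simple epithelial keratin whose gene lies beside that of Krt15, at 3.07, 2.2 and 2.69 and 0.109, 0.429 and 0.471 CPM (log2 fold change -2.95, SE 0.51, adjusted p = 0.000805). Among follicle sheath keratins 3 of 9 were tested, with Krt75 lower, at 117, 141 and 98.8 and 59.3, 47.6 and 86.1 CPM (log2 fold change -0.89, SE 0.20, adjusted p = 0.00479), and Krt71 higher, at 0.701, 0.41 and 0.579 and 1.03, 1.96 and 1.08 CPM (log2 fold change 1.25, SE 0.42, adjusted p = 0.0314). Of 15 hair shaft keratins 5 were tested, 2 were higher, Krt84 at 0.162, 0.872 and 0.579 and 3.54, 1.47 and 1.27 CPM (log2 fold change 1.94, SE 0.62, adjusted p = 0.0253) and Krt86 at 0.108, 0.103 and 0.105 and 1.8, 2.57 and 0.471 CPM, and 3 lower, among them Krt32, at 4.26, 5.02 and 5.06 and 0.653, 0.98 and 1.65 CPM (log2 fold change -2.10, SE 0.39, adjusted p = 0.00121). Krt36, also lower, was at 1.78, 1.33 and 1.58 CPM in control skin and at 0, 0 and 0.0471 CPM in LL37 skin. No fold is given for Krt86 and Krt36, which had 3 counts or fewer in every library of control or of LL37 skin. Apart from Krt75, the keratins named here were at under 10 CPM in all control and LL37 libraries, a level that Krt6b, the lowest member, also had in control replicate 1.

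The filament anchors were mixed. Of 20 desmosome and hemidesmosome genes, 5 were higher and 3 lower when LL37 was compared with control skin (median log2 fold change 0.20). These counts were near the 21% and 21.6% of all tested genes called higher and lower. Those higher were led by Itga6, the basal integrin of the hemidesmosome, at 1.39 (SE 0.18, adjusted p = 0.000121), and Dsg3, the basal desmosomal cadherin, at 1.50 (SE 0.21, adjusted p = 0.000212). Dst and Cd151, which belong to the hemidesmosome, were lower, at -0.81 (SE 0.25, adjusted p = 0.0216) and -0.26 (SE 0.080, adjusted p = 0.0207). Of 20 genes of the cornified envelope and granular layer, 3 were higher and 1 lower (median -0.057), no more than these shares of all tested genes. Klk7, a protease of the horny layer, was at 0.79 (SE 0.20, adjusted p = 0.00807), Hrnr at 0.77 (SE 0.19, adjusted p = 0.00669), and Lor, the main envelope protein, at -0.45 (SE 0.15, adjusted p = 0.0303). Beside Krt1 and Krt10, most measured late differentiation genes therefore did not pass either.

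Most genes known to accompany the wound keratins were higher. Of 20 activated keratinocyte genes, a list that includes Gjb2, 19 were tested, 16 were called higher and 0 lower in the comparison with control (median 1.84), and 15 of the 19 were higher in LL37 than in LL37+RAPA skin. Tnc, a matrix glycoprotein of wounds that other skin cells also make, had a log2 fold change of 4.68 (SE 0.48, adjusted p = 2.66e-05) against control. Of the EGF receptor family and its ligands, 7 of 10 were higher and 1 lower, with Tgfa at 1.01 (SE 0.14, adjusted p = 0.000193), Erbb3 at 0.75 (SE 0.14, adjusted p = 0.00147) and Egf, at 27.6, 18.6 and 25.2 and 0.925, 1.29 and 1.46 CPM, lower at -4.27 (SE 0.38, adjusted p = 1.03e-05). Of 27 epidermal transcription factors, 10 were higher and 0 lower, among them Fosl1, an AP-1 subunit, at 1.40 (SE 0.19, adjusted p = 0.000193).

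Proliferation genes were called higher with LL37 whether or not mice received RAPA, and most were also higher in LL37 than in LL37+RAPA skin (11 of 14, median 0.93). All 14 were higher against control (median 1.65), led by Rrm2 at 1.90 (SE 0.15, adjusted p = 4.95e-06) and Bub1 at 1.64 (SE 0.20, adjusted p = 9.89e-05), and all 14 were also higher in LL37+RAPA than in control+RAPA skin (median 1.18). In control+RAPA against control skin their median was -0.42, with 0 of 14 called. Summed, they were at 411 to 441 CPM in LL37+RAPA, 226 to 321 in control and 158 to 256 in control+RAPA skin. Bub1 alone overlapped between LL37+RAPA, at 3.80, 4.67 and 3.20 CPM, and control skin, at 2.59, 3.43 and 3.11. In LL37+RAPA against control+RAPA skin 3 of 19 activated keratinocyte genes were higher (median 0.18). Beside Krt15, genes of the bulge and upper follicle were 0 higher and 6 of 11 lower in LL37 skin (median -0.48), with Lgr6 at -1.38 (SE 0.16, adjusted p = 5.6e-05) and Cd34, which vessels also express, at -1.08 (SE 0.16, adjusted p = 0.00027). None of the 11 passed between LL37+RAPA and control+RAPA skin, and neither did Krt15, whose libraries overlapped. Lgr6 gave -0.43 (SE 0.15, adjusted p = 0.0742, edgeR) there, with every LL37+RAPA library below every control+RAPA library. The share of all tested genes separated in this way was not counted for that comparison. The counts of these lists stand beside 21% of tested genes called higher and 21.6% lower against control, and no test over a list was made. For LL37 against LL37+RAPA skin these shares were 11.8% and 12.4%, and for LL37+RAPA against control+RAPA skin 8.2% and 10.4%.

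Most markers of muscle, neutrophils, macrophages and adipocytes differed between LL37 and control skin. The counts below stand beside 21% of all tested genes called higher and 21.6% called lower. Against control, LL37 skin had 19 of 19 tested muscle markers lower (led by Des and Mb) and 9 of 9 tested neutrophil markers higher (led by Itgam and Csf3r). Macrophage markers were higher for 8 of 10 and adipocyte markers lower for 9 of 10. Endothelial markers were lower for 4 of 10. Sebaceous gland markers were lower for 1 of 10, and fibroblast markers were higher for 2 and lower for 1 of 10, no more than the shares of all tested genes. In the epithelial reference list 5 of 20 were higher, near the share of all tested genes. These were led by Cdh3, a cadherin of basal cells, at 1.33 (SE 0.20, adjusted p = 0.000404), and Epcam at 0.73 (SE 0.12, adjusted p = 0.000683). Scaled to this list, Krt14, Krt16, Krt17, Krt6a and Krt6b were still called higher and Krt15 lower against control, and their log2 fold changes were, in that order, 0.91 (adjusted p = 0.0021), 4.17 (adjusted p = 0.00217), 0.85 (adjusted p = 0.00215), 1.86 (adjusted p = 0.0022), 3.53 (adjusted p = 0.0332) and -1.27 (adjusted p = 0.000451). With this scaling the median of all tested genes was -0.24. Control replicate 3, highest of the controls for Krt16, had 68.3 CPM of neutrophil markers against 53.0 and 28.5 in the other controls, and LL37 replicate 3, lowest of the LL37 libraries for Krt16, had 224 against 918 and 1209. The other libraries of these groups ran in the opposite order, with Krt16 at 24.4 and 36.6 CPM in control replicates 1 and 2 and at 3772 and 2746 CPM in LL37 replicates 1 and 2. In both RAPA groups the library with the highest marker sum was not the one with the highest Krt16. A link between Krt16 and these markers was not tested.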

How the data were processed

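RNA of mouse back skin was sequenced in 12 libraries, 3 for each of 4 groups, from 1 ug of total RNA with a TruSeq kit that does not mark strand. The authors deposited raw read counts per Ensembl gene, without normalization, in 1 table whose 12 columns all carry a sample label, and 0 columns of other samples. The submitters' processing notes name HISAT2 2.0.5, StringTie 1.3.3b, featureCounts 1.5.0-p3, DESeq2 1.16.1 and the build mm10 without their roles, whereas the methods of the study name HTSeq, so the counting rule for reads of paralogues is not certain. Identifiers were matched to GENCODE M21 on GRCm38 (52489 of 52636), and 3 list genes by an older symbol, and Krt85 was not analysed here.

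Counts were fitted in R 4.3.3 with edgeR 4.0.16 (TMM, filterByExpr by group, quasi-likelihood F-test) over all 12 libraries, with Benjamini-Hochberg adjustment over 17993 genes. A gene passed at an adjusted p under 0.05, and a standard error is the log2 fold change divided by the square root of F. CPM uses TMM library sizes, and CPM per kb the length of the main coding transcript. Depth was 15734559 to 23271784 counts. The members and the 19 lists were chosen with earlier results of these data known. Named beside the members were, per list, up to 2 genes per direction with the lowest p against control (markers by name only; some genes that this rule names are not reported here), and for 5 members the 3 genes with the highest correlation of log2 CPM. Alternatives were RLE or library-size scaling, removal of muscle genes, scaling to the epithelial list, filters of 1 count in total or 10 counts in every library, DESeq2 1.42.0, the compared groups only, a limit of 1 on the log2 fold change, a block for the replicate number, and leaving out each library. The fits were tested on simulated data. RefSeq promoter sequences of the wound keratins and protein sequences were not used here.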

Additional observations from a re-analysis of the deposited data

Results flagged for a closer look

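Krt17 was singled out because the difference that went with RAPA was not the same with and without LL37. The difference of differences was -1.08 on the log2 scale (SE 0.25, adjusted p = 0.0411, edgeR interaction term), a fold of 0.474. Krt17 was at 1091, 1727 and 1403 CPM in control, 1689, 1710.0 and 1762 in control+RAPA, 3158, 3073 and 2482 in LL37 and 1644, 1428 and 1979 in LL37+RAPA skin, so that all 3 LL37+RAPA libraries were below all 3 LL37 libraries, while control+RAPA and control libraries overlapped. The call held in 2 of 12 fits that left out 1 library, and it was lost with scaling by library size only, -0.97 (adjusted p = 0.0536), with scaling to the epithelial reference list, -0.77 (adjusted p = 0.072), and with the replicate number as a block, -1.09 (adjusted p = 0.0744). With the epithelial scaling Krt15 passed instead, at 1.42 (adjusted p = 0.0142, edgeR), where the median of all tested genes was 0.37. Without LL37 replicate 3, Krt14 and Krt15 passed beside Krt17.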

How the results depend on the processing

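Of 1040 values that the 10 members took under the alternatives in 5 comparisons, 933 kept their direction and their side of the threshold, 45 lost and 16 gained a call, and 46 changed sign. The calls of Krt14, Krt16 and Krt17 in LL37 against control and against LL37+RAPA skin were kept under all alternatives, apart from a limit of 1 on the log2 fold change, which left 6 of 7 called members against control and 3 of 7 against LL37+RAPA. With the muscle marker genes removed, the same 7 members were called against control, and 8, with Krt5 added, against LL37+RAPA. With each library left out, between 5 and 7 members were called against control and between 3 and 8 against LL37+RAPA. In the interaction, 1 member was called and 0 with scaling by library size only, 4 with a filter of 1 count, 3 with DESeq2, and between 0 and 3 with each library left out. The 1 member called was Krt17 in the main fit but Krt15 with the epithelial scaling. In LL37+RAPA against control+RAPA and in control+RAPA against control skin, 0 members were called under all alternatives.

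Correlations of deviations from the group means between same-numbered libraries were -0.19 to 0.26. They were not set against those of differently numbered libraries, so whether the replicate numbers pair the samples was not tested. The replicate block called 7 members against control, 6 against LL37+RAPA and 0 in the interaction, and it turned Krt10 against control to -0.043.

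Sign changes, none of them in a called value, came mostly from values near 0. Scaling to the epithelial list gave -0.26 for Krt10 and -0.15 for Krt79 against control, 0.081 for Krt17 in LL37+RAPA against control+RAPA, -0.12 for Krt14 and -0.027 for Krt6a in control+RAPA against control, and 0.094 for Krt10 and 0.020 for Krt5 in the interaction. Scaling by library size only gave 0.16 for Krt17 and -0.034 for Krt14 in the same comparisons. The filter of 1 count gave 0.0026 for Krt17, and the fit of the compared groups only gave 0.00066 for Krt17 and -0.0058 for Krt10 against control. With each library left out, the log2 fold change against control ran from -0.38 to 0.33 for Krt10 and from -0.14 to 0.31 for Krt79, and against LL37+RAPA from -0.12 to 0.59 for Krt10. In LL37+RAPA against control+RAPA it ran from -0.065 to 0.20 for Krt15 and -0.16 to 0.074 for Krt17. In control+RAPA against control it ran from -0.12 to 0.11 for Krt1, -0.080 to 0.10 for Krt10, -0.13 to 0.18 for Krt14, -1.65 to 0.85 for Krt16, -0.10 to 0.86 for Krt6a, -2.91 to 1.62 for Krt6b and -0.072 to 0.38 for Krt79, and in the interaction from -0.59 to 0.12 for Krt10 and -0.11 to 0.34 for Krt79.

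Over all genes, the epithelial scaling changed the balance of calls from 3777 higher and 3891 lower to 1696 and 4825 against control and from 2120 and 2239 to 748 and 2772 against LL37+RAPA, and in LL37+RAPA against control+RAPA from 1475 and 1863 to 1203 and 930 (3142 and 1194 by library size only). The fit of the compared groups only called 1197 and 1266 against LL37+RAPA. Interaction calls were 387 and 203, but 1500 and 81 with the epithelial scaling, 756 and 305 with the filter of 1 count, 1050 and 647 with DESeq2 and 167 and 63 with the block. The cause of these changes was not tested. Depth did not limit the members, whose lowest value rested on 143 counts, whereas 3 libraries a group and the spread of Krt6b and Krt16 did.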
